A study of Mus musculus with 8 samples.

Results

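Genes that copy DNA and drive mitosis were measured in RNA of the stromal vascular fraction (SVF) of gonadal WAT, the cells left after adipocytes are floated off a digested fat pad. The members were the rows of the deposited gene count table whose gene name was on a list of 38 cell division genes, out of 54532 genes in the table. Of these, 14 act in S phase, when DNA is copied, and 24 act in G2 and mitosis (G2/M). All 38 had enough counts to be tested among 15963 genes, and no member was dropped.

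The SVF came from male C57BL/6J mice, each sequenced once: 4 mice received control Ab (mice 1, 2, 6 and 9) and 4 received anti-BAFF Ab (mice 5, 7, 8 and 10). BAFF is a survival factor of B cells, and the anti-BAFF antibody (Sandy-2) neutralises it; the control was an isotype antibody (IgG1k). All 8 mice had eaten an HFD (60% fat calories) for 12 weeks and were switched to an NCD (16% fat calories) when antibody treatment began. Each antibody was injected at 2 mg/kg every 2 weeks for 6 weeks, and tissue was taken at week 18. The design text gives a starting age of 6 weeks, while the methods give 8 or 16 weeks. Which age applies to these mice is not known. There was no mouse kept on the HFD and no untreated mouse in the table, so both groups share the change of diet, and 1 fat pad of each mouse was digested. The groups had been formed from a glucose tolerance test before treatment.

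A cell that divides first licenses and fires its replication origins with the MCM helicase, copies its DNA with PCNA clamped to the polymerase, and draws on ribonucleotide reductase and thymidylate synthase for nucleotides. It then builds cyclin A and cyclin B with the kinase CDK1, condenses and attaches its chromosomes under the checkpoint kinases, and ends mitosis when the anaphase-promoting complex marks cyclin B and other proteins for destruction. In obese fat, macrophages around dead adipocytes, adipocyte progenitors and endothelial cells are among the cells known to divide. Transcription of S phase genes is known to be driven through E2F sites, and that of many G2/M genes through a short element called CHR together with CCAAT boxes.

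The promoter letters of 6 members are shown because the S and G2/M members differ in these elements. Each stretch is the 120 bases before RefSeq's gene start in GRCm38.p6, read 5′ to 3′ on the strand of the gene. The G2/M examples are Cdk1 (chr10:69352913-69353032, minus strand), Cdc20 (chr4:118437344-118437463, minus strand), Ube2c (chr2:164769809-164769928, plus strand) and Kif11 (chr19:37376262-37376381, plus strand). In these, capitals mark CHR (TTTGAA or its reverse complement TTCAAA) and CCAAT boxes (CCAAT or ATTGG). The S phase examples are Mcm6 (chr1:128359706-128359825, minus strand) and Rrm1 (chr7:102441575-102441694, plus strand), in which capitals mark E2F sites and CCAAT boxes; in Mcm6, overlapping E2F words on both strands run together.
Cdk1: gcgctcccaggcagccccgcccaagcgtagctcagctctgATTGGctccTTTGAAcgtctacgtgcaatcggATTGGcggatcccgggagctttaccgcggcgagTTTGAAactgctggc
Cdc20: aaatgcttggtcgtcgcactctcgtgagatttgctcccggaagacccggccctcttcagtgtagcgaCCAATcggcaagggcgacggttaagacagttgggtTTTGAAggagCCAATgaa
Ube2c: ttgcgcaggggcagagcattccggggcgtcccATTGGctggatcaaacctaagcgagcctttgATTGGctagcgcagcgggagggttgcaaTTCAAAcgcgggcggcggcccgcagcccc
Kif11: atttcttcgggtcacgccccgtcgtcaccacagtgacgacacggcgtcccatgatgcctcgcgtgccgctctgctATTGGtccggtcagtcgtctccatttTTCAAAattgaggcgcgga
Mcm6: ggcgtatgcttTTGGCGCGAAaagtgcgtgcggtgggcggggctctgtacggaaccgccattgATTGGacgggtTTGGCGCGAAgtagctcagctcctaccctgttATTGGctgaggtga
Rrm1: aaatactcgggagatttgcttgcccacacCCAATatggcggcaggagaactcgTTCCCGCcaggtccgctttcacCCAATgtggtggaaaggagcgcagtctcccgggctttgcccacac

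Over the longer window of 250 bases before to 50 bases after the start, RefSeq promoters were found for 20 of the 24 G2/M members and 12 of the 14 S members; Ccna2, Aurkb, Kif20a, Tpx2, Mcm4 and Gins2 had none in the table. CHR (TTTGAA or TTCGAA, either strand) occurred in 16 of the 20 G2/M promoters (80.0%) and in 2 of the 12 S promoters (16.7%), against 21.7% of all 27025 genes with a promoter. All of these 16 and 2 genes also held a CCAAT box, a pair of words found in 8.61% of all genes. E2F sites (the word TTGGCGC, the word TTCCCGC, the word TTCGCGC and the word TTGCCGC, either strand) occurred in 9 of the 12 S promoters (75.0%) and in 4 of the 20 G2/M promoters (20.0%), against 10.9% of all genes. CCAAT alone was common to both, in 9 S (75.0%) and 18 G2/M promoters (90.0%), against 41.1% of all genes. A match is a run of letters and not evidence of binding in these cells.

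The libraries held 13562340 to 18548024 counts, and 3 counts, the lowest level read as present, came to 0.165 to 0.219 CPM (counts scaled to a common depth after TMM). Members lay between 12 counts (Ttk) and 3275 counts (Pcna) in single mice. Scaled for gene length, the mean level over the 8 mice ran from 0.449 FPKM (fragments per kilobase of gene, scaled for depth) for Ttk to 69.65 FPKM for Pcna, with a median of 6.45 FPKM for the S members and 2.81 FPKM for the G2/M members. Markers of SVF cells were present in every mouse: summed macrophage markers were at 8294 to 13360 CPM, adipocyte progenitor markers at 6088 to 8400 CPM and endothelial markers at 759.5 to 1434 CPM, while adipocyte markers summed to 36.85 to 64.26 CPM. Epididymis markers were also present, at up to 1668 CPM in control mouse 2 and 1707 CPM in anti-BAFF mouse 7, above the endothelial markers of these mice (1106 and 901.1 CPM). A single library stood apart for the members. Control mouse 1 had the highest level of all 8 mice in 36 of the 38 members, whereas 26.7% of all genes tested were highest in that mouse. Every other mouse was highest for 8.96% (anti-BAFF mouse 8) to 12.0% (control mouse 9) of all genes tested. Control mouse 1 thus also stood out beyond the members, to a smaller degree. The group results are therefore given with and without it. As it was picked for its values in these same genes, a fit without it is not a valid test of the treatment.

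With all 8 mice, no cell division gene passed the test between the treatments in either direction. In edgeR's quasi-likelihood fit, with Benjamini-Hochberg adjustment over 15963 genes, 0 of 38 members rose and 0 fell under anti-BAFF Ab at an adjusted p of 0.05, against a background of 0% of tested genes called higher and 0.0564% called lower. At an unadjusted p of 0.05 the members again gave 0 in either direction (background 0.664% higher and 1.24% lower), and DESeq2's Wald test and limma on log2(FPKM + 1) also gave 0 members at either threshold. The background was 0.0098% higher and 0.209% lower (adjusted) and 0.384% higher and 0.95% lower (unadjusted) in DESeq2, and 0%, 0.0564%, 0.752% and 1.42% in limma. DESeq2 was run without the filter on low counts. Its shares are over 30626 genes (adjusted) and 30723 genes (unadjusted), not 15963, and are not like for like. The smallest unadjusted p among the members was 0.23, for the helicase subunit Mcm4, and every adjusted p was 1. In 0 of 38 members were the values of the groups separated without overlap (background 0.526% higher, 0.952% lower). In 12 of 14 S members and 20 of 24 G2/M members the log2 fold change (anti-BAFF Ab over control Ab) was above 0, against 51.5% of all genes tested. The members share the same 8 libraries, so these are not independent observations. The sign was also unsteady: 30 of the 38 members changed sign in some fit with 1 mouse left out. The median log2 fold change was 0.06 for the S members and 0.10 for the G2/M members, beside 0.00 for all genes tested. In RNA of a whole SVF, a change in the number of dividing cells and a change in RNA per dividing cell cannot be told apart.

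The score of a phase is the mean log2 CPM of its members in a mouse (prior count 2). The S score was 5.24, 4.58, 4.50 and 4.42 in control mice 1, 2, 6 and 9, and 4.79, 4.86, 4.70 and 4.77 in anti-BAFF mice 5, 7, 8 and 10. Control mouse 1 was above every anti-BAFF Ab-treated mouse, and the other three control mice were below every one of them. The control Ab mean was 4.68 ± 0.38 (SD, n = 4) and the anti-BAFF Ab mean 4.78 ± 0.07 (SD, n = 4), a difference of 0.09. The G2/M score was 4.42, 3.17, 2.72 and 2.77 in control mice 1, 2, 6 and 9, and 3.91, 3.64, 3.22 and 3.37 in anti-BAFF mice 5, 7, 8 and 10. The order was the same in kind, with control mouse 1 at the top and the remaining control mice at the bottom. Its means were 3.27 ± 0.79 (SD, n = 4) and 3.54 ± 0.30 (SD, n = 4), a difference of 0.27 that lay within the SD of either group. Without control mouse 1 the control means were 4.50 ± 0.08 for S and 2.89 ± 0.25 for G2/M (SD, n = 3), and the differences were 0.28 and 0.65. The G2/M score minus the S score, which sets mitosis against DNA copying within a mouse, averaged -1.41 ± 0.42 (SD, n = 4) under control Ab and -1.24 ± 0.26 (SD, n = 4) under anti-BAFF Ab. No p is given for these scores.

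**Figure D1:**
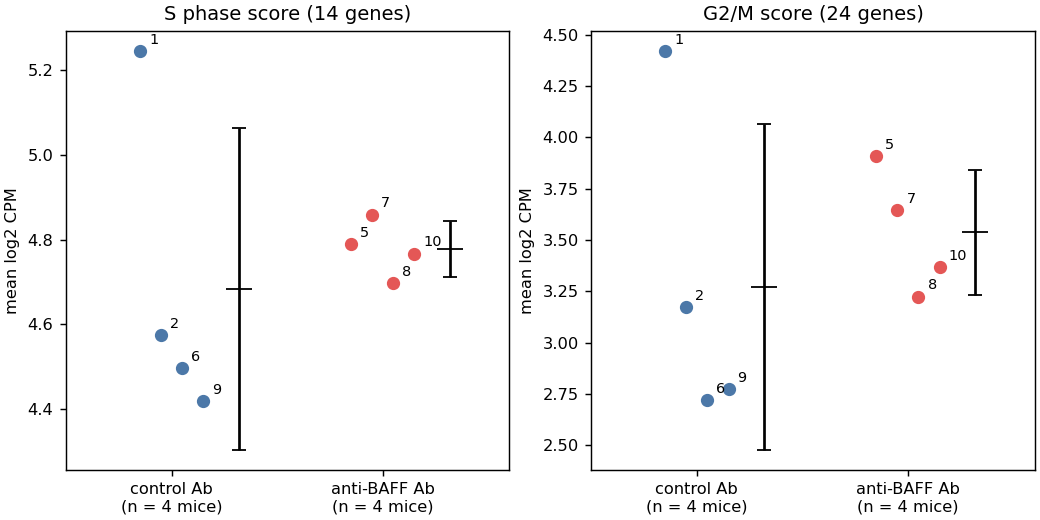
The S phase score (left, 14 genes) and the G2/M score (right, 24 genes) in mean log2 CPM for each mouse, numbered as in the text, with the group mean and SD as bars (n = 4 mice each). Control mouse 1 lies above all other mice in both scores, while control mice 2, 6 and 9 lie below the 4 anti-BAFF Ab-treated mice.

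The 6 MCM subunits, which form the replicative helicase, gave log2 fold changes between -0.00 and 0.11. Mcm3 (chromosome 1, 20802968 to 20820312) was at 67.61, 40.79, 38.11 and 35.62 CPM in control mice 1, 2, 6 and 9 and at 49.01, 48.87, 47.11 and 50.96 CPM in anti-BAFF mice 5, 7, 8 and 10. The anti-BAFF Ab-treated mice were within a few CPM of each other and fell in the gap between control mouse 1 and its group. The log2 fold change of Mcm3 was 0.11 (standard error 0.19, edgeR unadjusted p = 0.586) with all mice and 0.34 (standard error 0.06) without control mouse 1. Here and below, values and standard errors without control mouse 1 are descriptive only, as that mouse was picked for these same genes. Mcm5 showed the same arrangement, at 53.91, 30.56, 25.16 and 23.23 CPM against 32.11, 36.71, 32.43 and 31.44 CPM, and its log2 fold change was -0.00 (standard error 0.24), and 0.32 (standard error 0.11) without control mouse 1. Mcm2, Mcm6 and Mcm7 were likewise highest in control mouse 1, at 39.27, 81.45 and 39.64 CPM. Mcm4 was the exception in this complex. It was at 44.04, 37.24, 44.48 and 39.65 CPM with control Ab and at 44.90, 41.05, 46.07 and 45.72 CPM with anti-BAFF Ab, so its highest mouse (anti-BAFF mouse 8) had only 1.24 times the level of its lowest.

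Origins are licensed by Cdc6 and Cdt1, which load the helicase, and fired with the help of Gins2, a subunit of the GINS complex. Cdc6 (chromosome 11, 98907801 to 98923940) was at 7.75, 3.49, 5.34 and 4.40 CPM in control mice 1, 2, 6 and 9 and at 3.97, 4.34, 4.89 and 4.63 CPM in anti-BAFF mice 5, 7, 8 and 10. It had the lowest log2 fold change of the 38 members, -0.23 (standard error 0.24, edgeR unadjusted p = 0.365), and was at -0.00 without control mouse 1. Gins2 was at 12.22, 8.22, 5.19 and 5.14 CPM with control Ab and at 9.29, 10.08, 7.24 and 8.05 CPM with anti-BAFF Ab. Its log2 fold change of 0.17 (standard error 0.28) was the highest of the S members and was 0.47 (standard error 0.21) without control mouse 1, and control mice 6 and 9 were its lowest. Cdt1 was at 38.02 CPM in control mouse 1 and at 35.92 CPM in anti-BAFF mouse 7, with the other 6 mice between 24.14 and 30.11 CPM.

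Pcna (chromosome 2, 132249162 to 132253314), the sliding clamp of the replication fork, was the most abundant member. It was at 203.2, 148.1, 159.8 and 148.1 CPM in control mice 1, 2, 6 and 9 and at 160.4, 172.7, 169.1 and 175.9 CPM in anti-BAFF mice 5, 7, 8 and 10, and its log2 fold change was 0.04 (standard error 0.11), and 0.14 (standard error 0.06) without control mouse 1. Its copy Pcna-ps2 held 25 to 46 counts per mouse, and how reads that match both were assigned is not known. Uhrf1, which carries DNA methylation to the new strand, ran from 10.53 to 32.69 CPM and was the most variable S member. Rrm1 and Rrm2 are the large and small subunits of ribonucleotide reductase, and their spreads were unlike. Rrm1 ran from 57.81 to 78.72 CPM, with a highest mouse at 1.36 times the lowest. Rrm2 was at 28.72, 13.83, 11.49 and 9.42 CPM with control Ab and at 18.92, 16.72, 13.44 and 14.84 CPM with anti-BAFF Ab, a highest mouse at 3.05 times the lowest and a log2 fold change of 0.01 (standard error 0.32), or 0.45 (standard error 0.16) without control mouse 1. Tyms, thymidylate synthase, was the other member not led by control mouse 1: anti-BAFF mouse 5 had 10.91 CPM, control mouse 1 had 10.67 CPM and the remaining mice had 8.05 to 9.43 CPM.

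**Figure D2:**
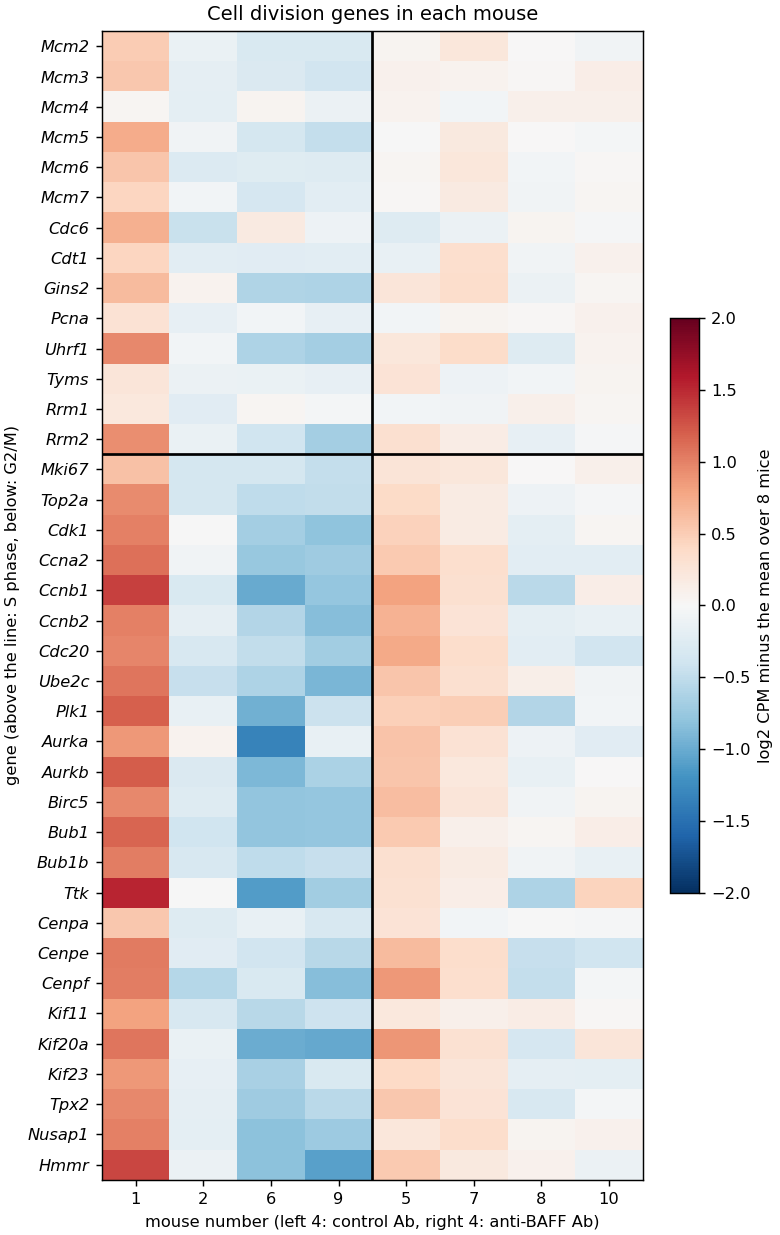
Level of each of the 38 cell division genes in each mouse, as log2 CPM minus the gene's mean over the 8 mice (red above, blue below), with the S phase genes above the horizontal line and the control Ab-treated mice left of the vertical line. The column of control mouse 1 is red for nearly all genes and deepest among the G2/M genes, and control mice 6 and 9 are mostly blue.

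Among the G2/M members, the proliferation marker Mki67 (Ki-67, which coats mitotic chromosomes; chromosome 7, 135689784 to 135716361) was the most abundant per length, at 11.06 FPKM. It was at 162.8, 84.65, 84.93 and 77.68 CPM in control mice 1, 2, 6 and 9 and at 129.5, 126.2, 108.5 and 116.2 CPM in anti-BAFF mice 5, 7, 8 and 10. The 4 anti-BAFF Ab-treated mice all lay above control mice 2, 6 and 9 and below control mouse 1. Its log2 fold change was 0.23 (standard error 0.22, edgeR unadjusted p = 0.334) with all mice and 0.53 (standard error 0.08) without control mouse 1. Top2a, the topoisomerase that untangles sister chromosomes, was at 94.91, 38.42, 34.53 and 35.06 CPM against 64.22, 55.23, 45.68 and 48.48 CPM. The arrangement was that of Mki67, and the log2 fold change was 0.07 (standard error 0.32), and 0.55 (standard error 0.12) without control mouse 1.

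Cdk1, the kinase of mitotic entry, and its cyclins Ccna2, Ccnb1 and Ccnb2 gave log2 fold changes between 0.04 and 0.16. Cdk1 (chromosome 10, 69335146 to 69352938), whose promoter letters carry both elements more than once, was at 23.70, 11.76, 7.32 and 6.75 CPM in control mice 1, 2, 6 and 9 and at 16.22, 13.23, 10.31 and 12.13 CPM in anti-BAFF mice 5, 7, 8 and 10. Control mouse 2 lay inside the range of the anti-BAFF Ab-treated mice, and the log2 fold change was 0.07 (standard error 0.37), and 0.57 (standard error 0.22) without control mouse 1. Ccnb1, cyclin B1, spread further. It was at 20.84, 6.56, 4.02 and 4.71 CPM with control Ab and at 14.07, 10.08, 5.55 and 8.88 CPM with anti-BAFF Ab, and its log2 fold change was 0.09 (standard error 0.52) with all mice and 0.90 (standard error 0.31) without control mouse 1. Its pseudogene Ccnb1-ps held 3 to 12 counts per mouse and Ccnb2-ps held 4 to 13. Ccna2 and Ccnb2 were highest in control mouse 1, at 29.84 and 20.41 CPM, and next highest in anti-BAFF mouse 5, at 20.06 and 16.43 CPM.

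Ube2c and Cdc20 serve the anaphase-promoting complex, as its ubiquitin-conjugating enzyme and its activator. Ube2c (chromosome 2, 164769898 to 164778822) was at 21.15, 7.27, 6.58 and 5.33 CPM in control mice 1, 2, 6 and 9 and at 14.74, 12.56, 10.96 and 9.54 CPM in anti-BAFF mice 5, 7, 8 and 10. Its 4 anti-BAFF Ab-treated mice were all above control mice 2, 6 and 9. The log2 fold change of Ube2c was 0.24 (standard error 0.41) with all mice and 0.88 (standard error 0.18) without control mouse 1. Cdc20 ran from 4.52 CPM in control mouse 9 to 14.39 CPM in control mouse 1.

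The mitotic kinases and checkpoint proteins (Plk1, Aurka, Aurkb, Birc5, Bub1, Bub1b and Ttk) had log2 fold changes from -0.19 to 0.25. Bub1, a checkpoint kinase at the kinetochore, was at 11.41, 3.84, 2.93 and 2.97 CPM with control Ab and at 7.27, 5.46, 5.22 and 5.57 CPM with anti-BAFF Ab (log2 fold change 0.15, standard error 0.43; 0.84, standard error 0.19, without control mouse 1). Birc5 (survivin, a partner of Aurkb) was at 16.25, 6.98, 4.83 and 4.89 CPM against 12.79, 9.85, 7.90 and 8.66 CPM (log2 fold change 0.25, standard error 0.38; 0.80, standard error 0.21, without control mouse 1). In both genes the anti-BAFF Ab-treated mice lay between control mouse 1 and the other three control mice, without overlap. Ttk, a kinase at the head of the spindle checkpoint, was the least abundant member and the most spread. It was at 5.46, 1.89, 0.878 and 1.18 CPM with control Ab and at 2.36, 2.08, 1.24 and 2.59 CPM with anti-BAFF Ab, and its log2 fold change was -0.19 (standard error 0.54) over all mice and 0.63 without control mouse 1. Aurka, the spindle pole kinase, had its lowest value in control mouse 6 (2.05 CPM), well under the 4.41 to 9.37 CPM of the other 7 mice.

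At the centromere, Cenpa, the histone variant that marks it, was the steadiest G2/M member, from 21.99 to 39.89 CPM. Cenpf was at 14.58, 4.79, 5.78 and 3.97 CPM with control Ab and at 13.06, 9.01, 5.16 and 6.95 CPM with anti-BAFF Ab, so anti-BAFF mouse 5 nearly reached control mouse 1. Its log2 fold change was 0.23 (standard error 0.44), and 0.80 (standard error 0.31) without control mouse 1. Cenpe, the kinetochore motor, had 20.28 CPM in control mouse 1 and 15.28 CPM in anti-BAFF mouse 5, with the other 6 mice between 6.75 and 12.56 CPM.

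The motor and spindle genes (Kif11, Kif20a, Kif23, Tpx2, Nusap1 and Hmmr) had log2 fold changes from 0.02 to 0.33. Kif20a, a kinesin of the cleavage furrow, held the highest of all members, 0.33 (standard error 0.47, edgeR unadjusted p = 0.496), and 0.98 (standard error 0.33) without control mouse 1. It was at 14.08, 6.09, 3.37 and 3.28 CPM with control Ab and at 12.39, 8.28, 5.29 and 7.94 CPM with anti-BAFF Ab. Kif11 (chromosome 19, 37376403 to 37421859), the kinesin that pushes spindle poles apart, was at 25.00, 11.53, 9.73 and 10.78 CPM against 16.56, 15.31, 15.92 and 14.56 CPM. Its anti-BAFF Ab-treated mice were close to one another, and without control mouse 1 the log2 fold change went from 0.13 (standard error 0.28) to 0.53 (standard error 0.10). Hmmr, a spindle assembly factor, was at 17.06, 6.21, 3.80 and 3.16 CPM with control Ab and at 9.63, 7.71, 7.18 and 6.23 CPM with anti-BAFF Ab (log2 fold change 0.02, standard error 0.48; 0.79, standard error 0.26, without control mouse 1).

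Members of the same phase followed a common order of mice. All 24 G2/M members were highest in control mouse 1, and in 21 of the 24 anti-BAFF mouse 5 came next, while control mouse 6 was lowest in 14 and control mouse 9 in 10. Of the 14 S members, 12 were highest in control mouse 1, 7 had anti-BAFF mouse 7 next, and 8 were lowest in control mouse 9. Control mouse 1 had a median of 2.90 times the mean of the other three controls over the G2/M members (1.72 times for Cenpa to 4.15 times for Ttk). Over the S members the median was 1.72 times (1.09 times for Mcm4 to 2.60 times for Uhrf1). As genes of one cycle share the same 8 libraries, these counts describe the mice and are not independent observations.

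The G2/M members were also the more variable set. The highest mouse had a median of 3.58 times the level of the lowest over the G2/M members (1.81 times for Cenpa to 6.22 times for Ttk), 1.77 times over the S members (1.24 times for Mcm4 to 3.10 times for Uhrf1), and 1.59 times over all genes tested. The biological coefficient of variation, edgeR's estimate of spread within the groups beyond counting error, had a median of 0.401 over the G2/M members and 0.198 over the S members, beside 0.186 over all genes tested. It was above the median of all genes in 24 of 24 G2/M members and in 9 of 14 S members. Control mouse 1 is part of this spread. The control Ab SD of the G2/M score was 0.79 with control mouse 1 and 0.25 without it. For the S score these were 0.38 and 0.08. No coefficient is given without that mouse.

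**Figure D3:**
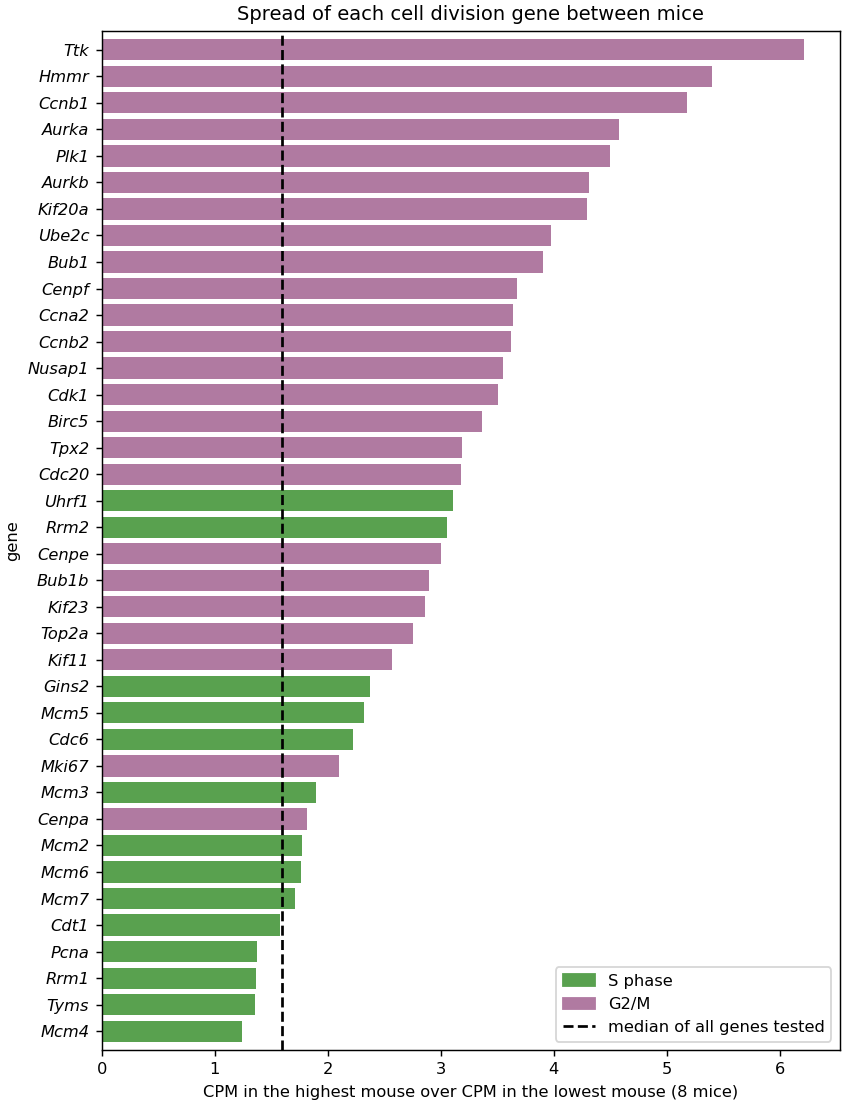
For each cell division gene, the CPM in the highest of 8 mice divided by the CPM in the lowest, with S phase genes in green, G2/M genes in purple and the median over all tested genes as a dashed line at 1.59. Most G2/M bars stand above most S phase bars; Mcm4 is the shortest at 1.24 and Ttk the longest at 6.22.

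Leaving out control mouse 1 set 4 anti-BAFF Ab-treated mice against 3 control Ab-treated mice, and 16261 genes passed the filter. This mouse was singled out because it was highest for these same genes, so its removal lowered the control mean of every member. The values describe how far the comparison rests on it. As the choice used these same values, the p-values and counts below are not a valid test of the treatment. The log2 fold change was above 0 in 37 of 38 members (all but Cdc6), against 47% of all genes tested. The median was 0.28 for the S members and 0.62 for the G2/M members (0.27 for Cenpa to 0.98 for Kif20a), beside -0.01 over all genes. At an unadjusted p of 0.05 in edgeR's test, 7 S members and 19 G2/M members were higher and 0 were lower, against 5.33% of tested genes higher and 5.18% lower; limma gave 26 members higher, against 5.38% of its genes higher and 5.07% lower. The 5 G2/M members that did not pass were Plk1, Aurka, Ttk, Cenpe and Kif23, and the S members that did were Mcm2, Mcm3, Mcm5, Mcm6, Mcm7, Uhrf1 and Rrm2. The values of 7 S and 11 G2/M members did not overlap between the groups (background 7.43% higher, 4.33% lower). After adjustment over all genes, 0 of 38 members passed 0.05 in edgeR (smallest adjusted p = 0.146, Mki67; background 0% higher, 0.0123% lower) and 0 passed in limma (0%, 0.0123%). DESeq2's Wald test on the same 7 mice, added after the data were seen, called 5 members higher at an adjusted p of 0.05 and 29 at an unadjusted p of 0.05. Its background was 0.301% higher and 0.529% lower after adjustment (17949 genes) and 2.88% higher and 2.7% lower before (30402 genes). These shares include genes of low count that the 16261 genes of edgeR and limma leave out, so they are not like for like. The 5 were Mki67 (log2 fold change 0.54, adjusted p = 1.45e-05), Ube2c (0.89, adjusted p = 0.0069), Top2a (0.56, adjusted p = 0.0142), Kif11 (0.53, adjusted p = 0.0254) and Mcm3 (0.35, adjusted p = 0.026).

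**Figure D4:**
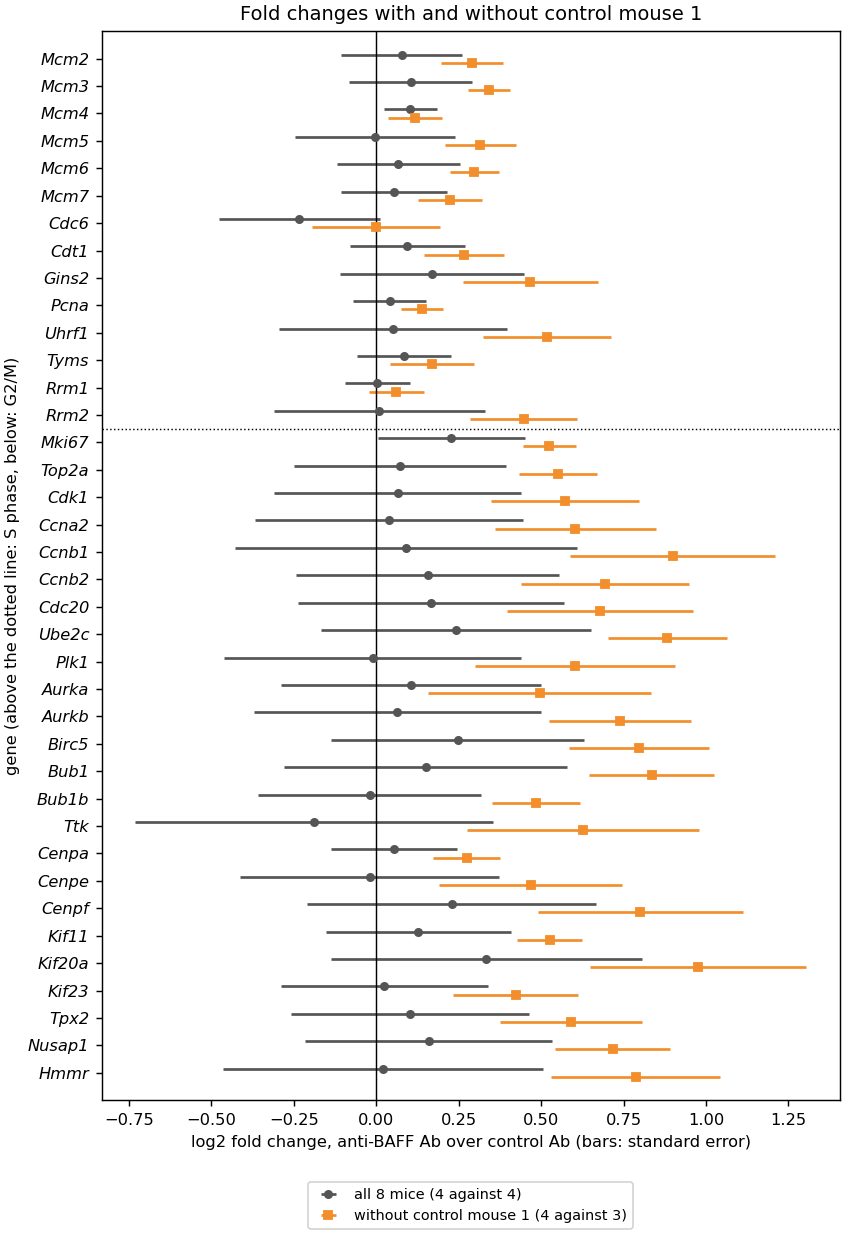
Log2 fold change of each cell division gene, anti-BAFF Ab over control Ab, with its standard error as a bar, from all 8 mice (grey circles) and without control mouse 1 (orange squares), from edgeR. The circles lie close to 0, between -0.23 and 0.33. The squares of the G2/M genes below the dotted line lie between 0.27 and 0.98. Control mouse 1 was picked for its values in these genes, so the squares and their bars are not a test of the treatment.

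Further genes of the cell cycle, from 3 lists outside the members, also gave no call with all mice. With all 8 mice, 0 of 41 other replication genes, 0 of 49 other mitosis genes and 0 of 36 regulators passed an unadjusted p of 0.05 in either direction. The background was 0.664% of tested genes higher and 1.24% lower (edgeR). Their median log2 fold changes were 0.06, 0.06 and 0.04. The genes of smallest p in each list were Orc1 (log2 fold change 0.43), Dut (-0.20) and Blm (0.31) for replication, Ckap2 (0.54), Hjurp (-0.12) and Ckap2l (0.35) for mitosis, and Lin9 (0.46), Ccnd1 (-0.16) and Cdkn2d (0.15) among the regulators. Lin9, a core subunit of the complex that reads CHR elements, had the lowest p of these (edgeR unadjusted p = 0.0701); it was at 5.77, 4.49, 4.54 and 3.16 CPM with control Ab and at 5.79, 7.26, 4.63 and 6.95 CPM with anti-BAFF Ab. Control mouse 1 was the highest mouse for 32 of the 41 replication genes, 44 of the 49 mitosis genes and 19 of the 36 regulators. Without it, 12, 30 and 11 genes of the lists were higher at an unadjusted p of 0.05 and 0 were lower (edgeR). The background was 5.33% of tested genes higher and 5.18% lower. The median log2 fold changes were then 0.23, 0.49 and 0.16, and 0 genes passed an adjusted p of 0.05 (background 0% higher, 0.0123% lower). As control mouse 1 led so many of these same genes, the counts without it are not a valid test of the treatment.

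Markers of other cells also set control mouse 1 apart, and their part in the result was not tested. Over 6 markers of lipid-associated macrophages, the macrophages that surround dead adipocytes, the summed level was 9470 CPM in control mouse 1, 5680 to 5851 CPM in the other control mice and 6009 to 7585 CPM in the anti-BAFF Ab-treated mice; 5 of the 6 were highest in control mouse 1. Anti-BAFF mouse 5, second in the G2/M score, stood out among these 6 markers in Spp1 alone, at 409.2 CPM against 59.18 to 143.3 CPM elsewhere. For Lpl (2581 CPM) and Gpnmb (2078 CPM) it was the lowest of the 8 mice, and its summed level was the lowest of the anti-BAFF Ab-treated mice. General macrophage markers (10 genes, 5 of them highest in control mouse 1) summed to 13360 CPM in that mouse and to 8294 to 10950 CPM in the others. T cell markers summed to 60.54 CPM in control mouse 1 and 30.50 to 49.34 CPM elsewhere, and 6 of 9 were highest in control mouse 1. For both lists anti-BAFF mouse 5 came next, at 10950 CPM (macrophage) and 49.34 CPM (T cell). Of all genes tested, 26.7% were highest in control mouse 1. In the other direction, 7 of 7 endothelial markers, 6 of 6 mesothelial markers and 5 of 9 progenitor markers were lowest in control mouse 1. The share of all genes lowest in that mouse was not counted, so these counts have no background beside them. The mesothelial markers, of the cells that line the fat pad, summed to 244.5 CPM in that mouse and 387.0 to 718.5 CPM in the others. None of the markers in these lists was at 0 in all mice.

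The B cell markers did not follow the cell division genes. They summed to 68.36, 81.22, 74.40 and 69.07 CPM in control mice 1, 2, 6 and 9 and to 58.84, 32.71, 39.80 and 31.93 CPM in anti-BAFF mice 5, 7, 8 and 10. These sums did not overlap between the groups. Among single genes tested, 0.952% were lower without overlap. Of the 11 tested markers, 9 were lower at an unadjusted p of 0.05 (background 1.24% lower, edgeR). After adjustment 0 were lower (background 0.0564%). Control mouse 1, which led the cell division genes, was at the lower edge of its group for B cell markers. Anti-BAFF mouse 5 also had neutrophil markers at a sum of 232.2 CPM against 35.96 to 102.0 CPM in the other mice. Of the tested ones, Csf3r, S100a8, S100a9 and Cxcr2 were highest in anti-BAFF mouse 5. Ltf was higher in control mouse 6 (73.3 against 63.95 CPM) and Retnlg in control mouse 1 (3.10 against 1.28 CPM). Erythroid markers summed to 126.1 CPM in anti-BAFF mouse 5, close to anti-BAFF mouse 7 (129.6 CPM) and control mouse 1 (133.6 CPM).

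**Figure D5:**
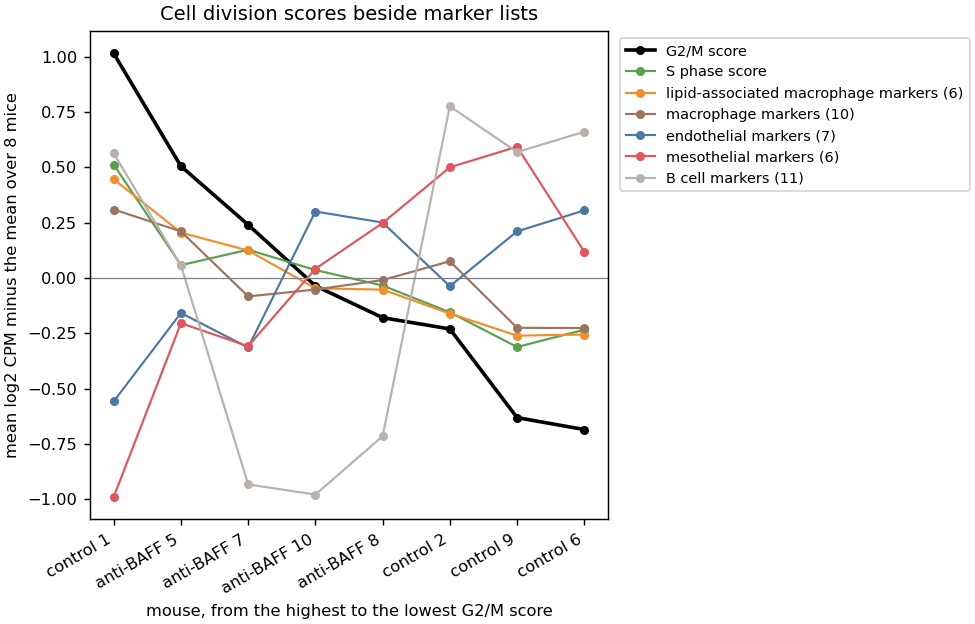
Mean log2 CPM of the G2/M and S phase members and of 5 marker lists, each minus its mean over the 8 mice, with mice ordered from the highest to the lowest G2/M score and the number of tested markers in brackets. The lipid-associated macrophage line is highest in control mouse 1 and its second point, anti-BAFF mouse 5, rests on Spp1 (409.2 CPM); the mesothelial and endothelial lines are lowest in control mouse 1, and the B cell line is high in the 4 control Ab-treated mice.

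Of 10 epididymis markers, from the organ beside the fat pad, 4 were tested and Lcn9 was at 0 in all mice. They summed to 1668 CPM in control mouse 2 and 1707 CPM in anti-BAFF mouse 7, against 17.00 to 674.0 CPM in the other 6 mice. Without this pair, the median log2 fold change was -0.05 for the S members and -0.00 for the G2/M members, still with 0 members past an unadjusted p of 0.05 in edgeR.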

How the data were processed

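SVF RNA of 8 mice was sequenced in pairs of reads by a service laboratory. The authors deposited raw counts per gene, with gene coordinates and a gene length in bases (an other value, used here only for FPKM). The submitters' processing notes name mm10; the aligner, counter and annotation are not given in the sources used here. FPKM and an adjusted p threshold of 0.05 are named in the methods. Groups were taken from the treatment labels, with 1 library per mouse.

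From the deposited counts, edgeR 4.0.16 (R 4.3.3) fitted treatment as the only term after filterByExpr (minimum count 10) and TMM, using glmQLFit with the robust option off. Benjamini-Hochberg adjustment ran over all 15963 genes that passed. CPM uses TMM-scaled library sizes, and depth intervals cover counting error only. DESeq2 1.42.0 and limma 3.58.1 on log2(FPKM + 1) were alternatives, beside RLE or library size scaling, other filters, the robust option, and mice left out. Tables were made in Python 3.11.15. The fits were tested on simulated data with 200 changed genes. Those changes were larger than any log2 fold change of the members. Whether changes as small as those of the members would be found was not tested.

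The members and the gene and marker lists were chosen with earlier results of these data known. All 38 members are named. The other named genes are the 3 of smallest p in each cell cycle list, copies of members with counts, and some markers. Spp1, Lpl and Gpnmb are given for their values in anti-BAFF mouse 5, as are the tested neutrophil markers. Lcn9 is given because it had no counts. Fold changes are given singly for 18 members. Promoters came from RefSeq (GRCm38.p6).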

Additional observations from a re-analysis of the deposited data

Results flagged for a closer look

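In groups of 4 mice, a mouse was listed here when its gap to the nearest other mouse was too large a part of the whole range by Dixon's 95% limit. Chance gives about 1 such group in 20, so about 4.1 of the 82 groups examined, and 18 were found. The genes share the same libraries, so these are not independent.

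Control mouse 1 stood above the other 3 control Ab-treated mice in 16 members. Among the S phase members these were Mcm3 at 67.61 CPM, Mcm6 at 81.45 CPM, Cdt1 at 38.02 CPM and Tyms at 10.67 CPM in that mouse. Among the G2/M members, Mki67 was at 162.8 CPM, Top2a at 94.91 CPM, Ccnb1 at 20.84 CPM, Cdc20 at 14.39 CPM and Ube2c at 21.15 CPM. Aurkb was at 18.30 CPM, Bub1 at 11.41 CPM and Bub1b at 29.22 CPM. The kinetochore and spindle genes Cenpa (39.89 CPM), Cenpe (20.28 CPM), Cenpf (14.58 CPM) and Kif11 (25.00 CPM) completed the set. Anti-BAFF mouse 5 stood above the other anti-BAFF Ab-treated mice in Bub1, at 7.27 CPM, and Cenpa, at 33.05 CPM.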

How the results depend on the processing

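The absence of members past an adjusted p of 0.05 held under every setting of edgeR and limma that was run, with any 1 mouse left out included. DESeq2's Wald test without control mouse 1, chosen after seeing the data, called 5 members higher, and gave 29 higher at an unadjusted p of 0.05; limma on log2(FPKM + 1) without that mouse gave 26. With 1 mouse left out at a time, edgeR placed 0 to 26 members higher and 0 lower at an unadjusted p of 0.05, and of the other cell cycle genes 0 to 53 higher and 0 to 2 lower; the 26 and the 53 came without control mouse 1. In the same fits the median log2 fold change ranged from -0.0064 to 0.28 for the S members and from -0.075 to 0.62 for the G2/M members, and the score differences from 0.01 to 0.26 (S), 0.08 to 0.63 (G2/M) and 0.05 to 0.37 (G2/M minus S), with the scaling recomputed on the remaining mice. Without control mouse 2 and anti-BAFF mouse 7 together, the medians were -0.049 (S) and -0.0039 (G2/M), and the log2 fold changes were -0.032 for Pcna, -0.087 for Rrm2, -0.068 for Top2a, -0.068 for Ccnb1 and -0.076 for Hmmr.

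Under the remaining settings, Mcm5 was at 0.064 with limma on log2(FPKM + 1), and without control mouse 1 at 0.33 (DESeq2) and 0.28 (limma). Cdc6 was then at 0.015 and 0.0022, and Ttk at 0.64 and 0.16. Rrm2 was at -0.0086 without a filter on low counts. With 1 mouse left out, 29 of 144 log2 fold changes of the 18 members given singly changed sign: they ranged from -0.047 to 0.84 for Bub1, -0.16 to 0.90 for Ccnb1, -0.14 to 0.57 for Cdk1, -0.059 to 0.80 for Cenpf, -0.23 to 0.79 for Hmmr, -0.016 to 0.53 for Kif11, -0.14 to 0.32 for Mcm5, -0.006 to 0.14 for Pcna, -0.17 to 0.45 for Rrm2, -0.072 to 0.55 for Top2a and -0.45 to 0.63 for Ttk. Among all 38 members, 30 changed sign in some such fit, and 37 were highest without control mouse 1. Of 180 values under other settings, 162 kept their sign and side of the threshold. The cause was not tested. No paired analysis was possible because the mouse numbers differ between the groups. The lowest counts, 12 for Ttk, limit the precision of the least abundant members.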
